A study of Mus musculus with 9 samples.

Results

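The expression of 10 MHC class I presentation genes was followed in B16F10 mouse melanoma cells with altered expression of Sirpa. These are the heavy chain genes H2-K1, H2-D1, H2-Q4 and H2-T23, the light chain gene B2m, the peptide transporter genes Tap1 and Tap2, the loading chaperone gene Tapbp, the peptide-trimming gene Erap1 and the transcriptional activator gene Nlrc5. The H2 genes, Tap1, Tap2 and Tapbp lie on chromosome 17, B2m on 2, Nlrc5 on 8 and Erap1 on 13. The rule that names them uses the pathway, but it was set with earlier results of these data known, so the counts below are no independent evidence of direction. They make up 10 of 51717 genes in the deposited tables and 10 of the 13064 genes expressed highly enough to be tested. B16F10 is an established melanoma line from a C57BL/6 mouse. Its cells were compared as a line with a non-target control, a line with SIRPA knockdown and a line with SIRPA overexpression, all grown in the same serum-containing medium with no other treatment named. Each line gave 3 libraries, described as biological repeats, and the estimated counts per library, in units of 1000000, summed to between 16.4 and 22.38. Since each condition is 1 line, the tests compare these 3 lines, with errors from their repeats, and say nothing of how lines made anew would vary. Neither the vectors nor whether a line is a clone or a pool is stated in the labels.

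MHC class I molecules sit on the surface of nearly all nucleated cells and show peptides from inside the cell to CD8 T cells. A heavy chain pairs with the light chain, beta-2 microglobulin. Peptides are cut by the proteasome, pumped into the endoplasmic reticulum by the TAP transporter, trimmed there by aminopeptidases and loaded with the help of tapasin. NLRC5 activates many of these genes together at their promoters, and interferons and NF-kappaB raise them too. B16 melanoma cells are known for low surface class I that interferon gamma can raise.

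Sirpa, an inhibitory receptor gene best known from macrophages, followed the labels in all 9 libraries. The control libraries held 292, 289 and 303 CPM of it (counts per 1000000, scaled by TMM), the knockdown libraries 118, 112 and 115 CPM, and the overexpression libraries 895, 898 and 914 CPM. The cells carried melanocyte genes in every library, with 8 marker genes summing to between 17100 and 17800 CPM in the control and knockdown libraries and to between 19300 and 19800 CPM with overexpression. The leukocyte gene Ptprc was at 0 counts throughout, as were 6 of 8 T and NK cell markers, 4 of 6 B and dendritic cell markers and 5 of 6 epithelial markers. The B and dendritic cell markers summed to 10.3 to 11.3 CPM in the controls, 6.55 to 8.75 CPM with knockdown and 7.12 to 9.8 CPM with overexpression. Most of that was Zbtb46, with means of 10.3, 7.76 and 8.02 CPM. The 8 macrophage and myeloid markers summed to 1.78 to 3.25 CPM in the controls, 3.69 to 4.8 CPM with knockdown and 2.65 to 3.55 CPM with overexpression, and Adgre1 and Fcgr1 among them were at 0. The 6 fibroblast markers summed to 64 to 67, 17.2 to 19 and 73.6 to 83.1 CPM. Col1a1 made up most of that difference (means of 55.6, 4.95 and 66.5 CPM), while Col1a2 was at 5.27, 8.62 and 8.39 CPM and Pdgfra at 4.08, 3.94 and 3.04 CPM. The 5 endothelial markers summed to 3.09 to 5.39, 2.5 to 2.92 and 2.59 to 2.87 CPM. The part of these differences in the class I results was not tested. In bulk RNA, fewer cells expressing a gene and less RNA per cell cannot be told apart.

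The promoters of the heavy chain and light chain genes are shown first, since factors that act on several class I genes bind there and the genes are compared for how they moved together. RefSeq's promoter table (GRCm38.p6, 250 bases before to 50 after each start site, 300 bases in all) held 8 of the 10 genes. Nlrc5 and Tap2 are named only. In the sequences below, each 5′ to 3′ on the gene's own strand, capitals mark matches to 4 patterns, each searched on both strands. These are kappaB (GGG, 2 free bases, TT, 1 free base, CC), an interferon-response pattern (TTTC, 2 free bases, TTTC), CCAAT, and the spaced pair of TGAC and ATTGG with 21 bases between them. The letters and the gap were chosen after the promoters had been read. ATTGG is CCAAT on the other strand, so the spaced pair always holds a CCAAT match. The first 3 windows are H2-D1 (chr17:35262917-35263028, plus strand), H2-K1 (chr17:34000353-34000464, minus strand) and H2-Q4 (chr17:35379437-35379548, plus strand), chosen to show how closely the heavy chain promoters match.
H2-D1: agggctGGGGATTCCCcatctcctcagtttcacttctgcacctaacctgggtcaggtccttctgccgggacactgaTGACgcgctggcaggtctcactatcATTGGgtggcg
H2-K1: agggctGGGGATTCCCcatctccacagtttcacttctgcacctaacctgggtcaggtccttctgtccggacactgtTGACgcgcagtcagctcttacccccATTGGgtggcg
H2-Q4: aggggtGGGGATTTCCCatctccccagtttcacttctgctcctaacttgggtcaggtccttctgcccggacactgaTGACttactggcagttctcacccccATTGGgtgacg

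The light chain gene, on another chromosome, and 2 further members are shown for contrast. They are B2m (chr2:122147542-122147644, plus strand), H2-T23 (chr17:36032743-36032831, minus strand) and Erap1 (chr13:74639843-74639864, plus strand).
B2m: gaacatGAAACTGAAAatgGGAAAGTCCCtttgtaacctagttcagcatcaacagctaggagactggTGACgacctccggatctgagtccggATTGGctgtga
H2-T23: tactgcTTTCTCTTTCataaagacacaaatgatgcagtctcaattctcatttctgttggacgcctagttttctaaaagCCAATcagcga
Erap1: cttcacTTTCACTTTCggtccc

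The 8 genes had 9 promoters in the table, 2 of them of H2-K1. The spaced pair was found in the promoters of 4 genes, H2-K1 (both), H2-D1, H2-Q4 and B2m, and in 0.253% of 32851 promoters in the table. The promoters of the same 4 genes held kappaB, found in 4.79% of all promoters. B2m, H2-T23 and Erap1 held the interferon-response pattern, found in 3.44% of all. The printed windows of H2-D1, H2-K1 and H2-Q4 hold tttcacttct, which is similar but is not matched by this strict pattern. A missing match therefore does not show that a promoter lacks an interferon-response element. CCAAT is common, at 37.4% of promoters, and it was the only one of these patterns in the windows of Tap1 and Tapbp. Of 57 genes of the wider class I and class II lists below that had a promoter in the table, 5 held the spaced pair, the fifth being the non-classical heavy chain gene H2-M3. A match describes the letters only.

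All 10 genes passed the filter on low counts. With knockdown, 9 of 10 were higher than control and 0 lower, where 18.0% of all tested genes were called higher and 17.4% lower (edgeR's quasi-likelihood test, called below 0.05 after Benjamini-Hochberg adjustment across the whole table). The gene not called was H2-T23. With overexpression, 7 of 10 were higher and 0 lower, against 13.1% higher and 11.1% lower of all genes; H2-K1, H2-T23 and Tapbp were not called. Between the perturbed lines, 7 of 10 were lower with overexpression than with knockdown and 0 higher, against 11.1% lower and 11.0% higher of all genes, and H2-T23, Nlrc5 and Erap1 were not called. The median log2 fold change of the 10 genes was 0.53, 0.34 and −0.29 in the 3 comparisons, where the median of all tested genes was −0.008, −0.001 and 0.004. The 3 comparisons share libraries, so their counts are not independent of each other.

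The libraries of the lines compared did not overlap in CPM for 8 of the 10 genes with knockdown, against 45.8% of all genes. With overexpression they did not overlap for 8 of 10, against 40.4%, and between the perturbed lines for 7 of 10, against 35.9%. The knockdown calls of H2-K1, H2-D1, H2-Q4, B2m, Tap1, Tap2, Tapbp and Nlrc5 each held when any 1 of the 9 libraries was left out.

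**Figure D1:**
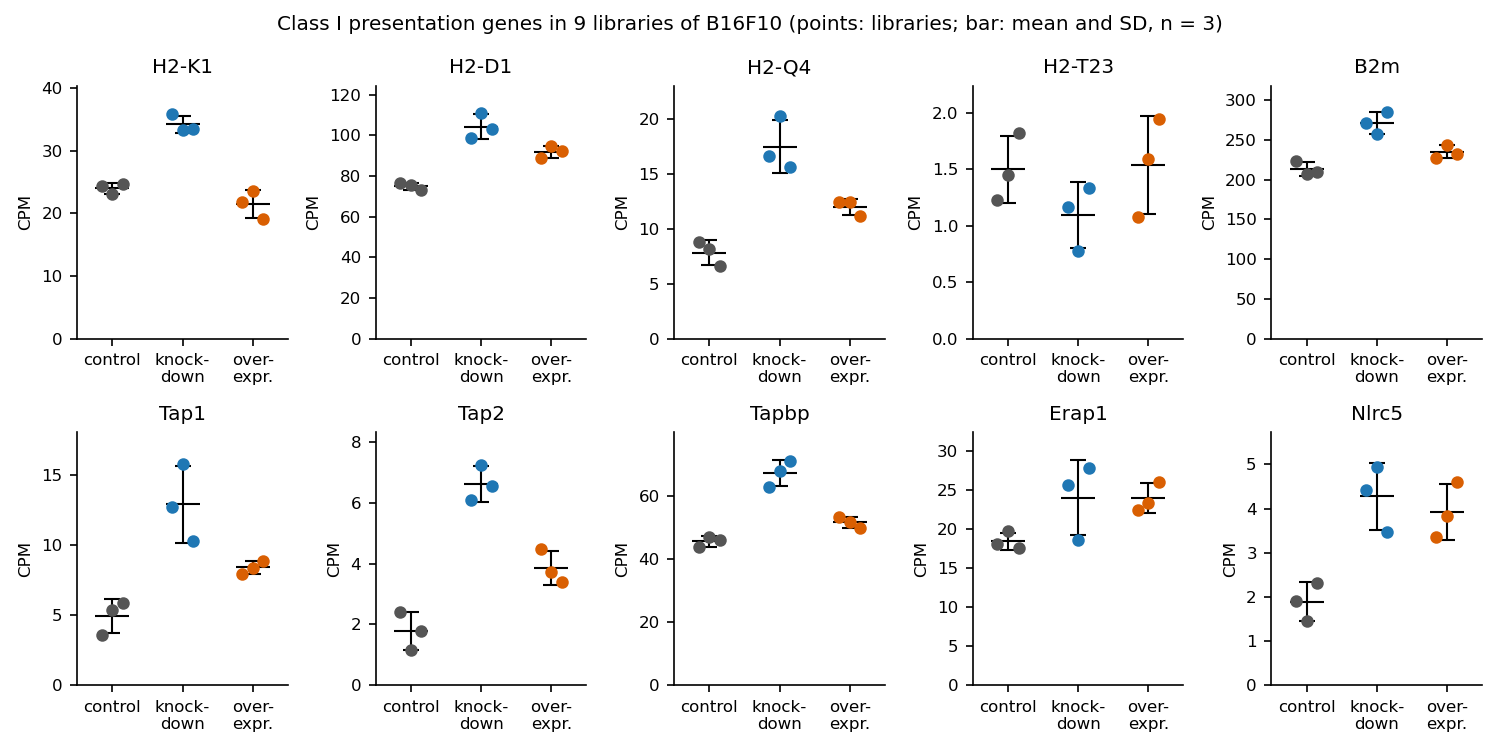
CPM of the 10 genes in each of the 9 libraries, with 1 panel per gene, points for libraries and bars for the mean and SD of 3 libraries per line. The knockdown libraries lie above the controls without overlap in 8 panels, while H2-T23 and Erap1 overlap. In the H2-K1 panel the overexpression libraries lie within or below the control range.

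The classical heavy chain genes H2-K1 and H2-D1, which encode the molecules that present peptides to CD8 T cells, both rose with knockdown, and with overexpression H2-D1 rose and H2-K1 was not called. H2-K1 was at 24.4, 23 and 24.6 CPM in the controls, 35.8, 33.3 and 33.4 CPM with knockdown and 21.8, 23.5 and 19 CPM with overexpression. Every knockdown library was above every other library, and the overexpression libraries overlapped the controls. H2-K1 was 1.42-fold higher with knockdown (log2 fold change 0.51 ± 0.09, SE; adjusted p = 0.000422). With overexpression its change from control was −0.16 ± 0.09 (95% interval −0.36 to 0.04; adjusted p = 0.238). It was 1.59-fold lower with overexpression than with knockdown (−0.67 ± 0.09; adjusted p = 7.17e-05).

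H2-D1 was at 76.3, 75.3 and 73.1 CPM in the controls, 98.6, 111 and 103 CPM with knockdown and 88.7, 94.6 and 92 CPM with overexpression. The 3 lines did not overlap. H2-D1 rose 1.39-fold with knockdown (0.47 ± 0.06; adjusted p = 1.05e-05) and 1.23-fold with overexpression (0.29 ± 0.06; adjusted p = 0.00164). Its difference between the perturbed lines (−0.18 ± 0.06; adjusted p = 0.0335) was not called without knockdown replicate 2 (adjusted p = 0.124), overexpression replicate 1 (0.115) or overexpression replicate 3 (0.0684).

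Because the promoters of H2-K1 and H2-D1 are so alike, their ratio within a library was examined, a choice made after their values were seen. There were 0.32, 0.305 and 0.337 H2-K1 counts per H2-D1 count in the controls and 0.363, 0.301 and 0.324 with knockdown. With overexpression there were 0.246, 0.249 and 0.207, all below every other library. The exact two-sided permutation test gave p = 0.1 for overexpression against control, the smallest p that 3 against 3 libraries allow, and p = 0.8 for knockdown against control. These were among 12 such tests over 4 ratios, and the smallest Benjamini-Hochberg adjusted p of the 12 exact permutation tests was 0.171; with 3 against 3 libraries none could reach 0.05. H2-K1 shares 22.8% of its 31-base words with other genes (11.1% with H2-D1) and H2-D1 shares 26.9% (13.8% with H2-K1), so part of their fragments was divided between them by the authors' estimate.

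H2-Q4, a non-classical heavy chain gene of the Qa region, had larger fold changes from control than the classical genes, from a lower level, a difference that was not tested. It was at 8.76, 8.12 and 6.56 CPM in the controls, 16.6, 20.2 and 15.6 CPM with knockdown and 12.4, 12.4 and 11.1 CPM with overexpression. The lines did not overlap and kept the order control, overexpression, knockdown. H2-Q4 was 2.24-fold higher with knockdown (1.17 ± 0.15; adjusted p = 1.36e-05) and 1.54-fold higher with overexpression (0.62 ± 0.15; adjusted p = 0.00593). Between the perturbed lines the difference was −0.55 ± 0.14 (adjusted p = 0.0111; 0.0585 without knockdown replicate 2). H2-Q4 shares 53% of its words with other genes, 19.5% with H2-Q6, and its assignment is less certain than that of the classical genes. H2-Q6, H2-Q7, H2-Q1 and H2-Q2 were at 0 counts in all libraries.

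H2-T23 encodes a non-classical molecule that presents leader peptides of other class I chains to a receptor of NK cells. It had only 13 to 37 counts per library, at 1.23, 1.45 and 1.82 CPM in the controls, 1.17, 0.774 and 1.34 CPM with knockdown and 1.08, 1.59 and 1.95 CPM with overexpression. The 3 lines overlapped. Its changes were −0.46 ± 0.46 with knockdown (95% interval −1.44 to 0.53; adjusted p = 0.488) and 0.03 ± 0.46 with overexpression (−0.94 to 1; adjusted p = 0.975). The difference between the perturbed lines was 0.48 ± 0.46, with a 95% interval of −0.5 to 1.47 (adjusted p = 0.511). At this depth a change of the size seen in H2-D1 was not detectable for H2-T23.

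Since heavy chain genes share sequence, the counts of 27 class I heavy chain genes and pseudogenes of the H2-K, H2-D, H2-Q, H2-T and H2-M groups were also summed to 1 feature. The sum was 127.1, 123.5 and 123.1 CPM in the controls, 176.8, 186.2 and 178.6 CPM with knockdown and 145, 158 and 151.5 CPM with overexpression. The lines did not overlap in this sum, which does not depend on how fragments were divided among these genes. It can still depend on how fragments were divided with genes outside the sum. Among those, Gm11131 holds 16.8% of the words of H2-Q4 and H2-T-ps 12.4% of the words of H2-T23. The sum was 1.45-fold higher with knockdown (0.54 ± 0.05; adjusted p = 1.9e-07) and 1.22-fold higher with overexpression (0.28 ± 0.05; adjusted p = 0.000283), and the difference between the perturbed lines was −0.25 ± 0.05 (adjusted p = 0.000725). H2-D1 made up 46.5% to 54.8% of the summed heavy chain TPM in the 9 libraries. H2-K1 made up 23.4% to 28% in the controls, 24.2% to 29.9% with knockdown, and 26.9%, 18.2% and 18.8% in the overexpression libraries.

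B2m, the light chain that every class I heavy chain needs, had smaller fold changes than the heavy chain sum. It was at 223, 207 and 210 CPM in the controls, 272, 258 and 285 CPM with knockdown and 228, 244 and 233 CPM with overexpression. The lines did not overlap, although the lowest overexpression library and the highest control were close. B2m rose 1.27-fold with knockdown (0.35 ± 0.05; adjusted p = 2.76e-05) and differed by −0.21 ± 0.05 between the perturbed lines (adjusted p = 0.00405). Its 1.1-fold rise with overexpression (0.14 ± 0.05; adjusted p = 0.0426) was a marginal call. That call ended without control replicate 2 (adjusted p = 0.138) or 3 (0.15), knockdown replicate 1 (0.0524), or overexpression replicate 1 (0.0551), 2 (0.165) or 3 (0.0879), and with an offset for average transcript length (0.12; adjusted p = 0.183).

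B2m shares no 31-base word with another gene and has 1 annotated transcript of 860 bases, so its level is the least ambiguous of the 10. The ratio of B2m TPM (transcripts per 1000000, a level per length) to the summed heavy chain TPM was 4.45, 4.65 and 4.56 in the controls. It was 3.97, 3.57 and 3.87 with knockdown and 4.01, 4.23 and 3.95 with overexpression, below every control in both lines. The exact two-sided permutation test gave p = 0.1 for each line against control, the smallest p possible, and p = 0.2 between the perturbed lines. Adjusted over the 12 tests, the exact permutation p was 0.171 for each line against control. This ratio too was chosen after the values were seen, as were B2m counts per H2-D1 count, at 2.75 to 2.92 in the controls, 2.33 to 2.77 with knockdown and 2.53 to 2.58 with overexpression, and Tapbp counts per Tap1 count, at 7.82 to 12.3, 4.31 to 6.9 and 5.6 to 6.69.

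**Figure D2:**
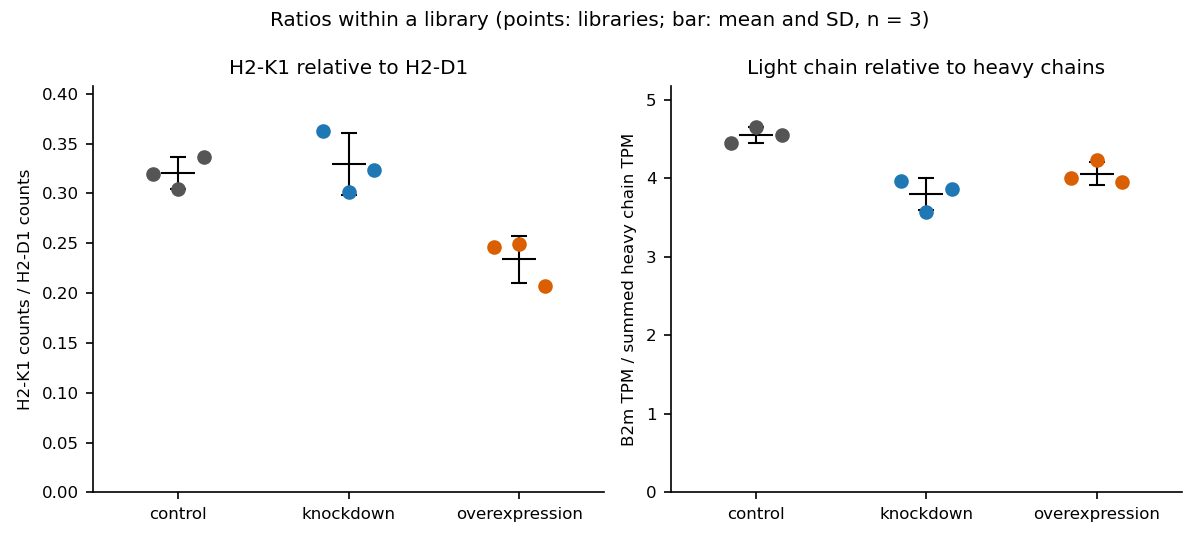
Left, H2-K1 counts per H2-D1 count; right, B2m TPM per TPM of all class I heavy chains, in each library of the 3 lines, with bars for the mean and SD of 3 libraries. The 3 overexpression libraries, between 0.207 and 0.249, lie below all others on the left, and the 3 controls, between 4.45 and 4.65, lie above all others on the right.

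The transporter genes Tap1 and Tap2, whose products together form the channel that carries peptides into the endoplasmic reticulum, had larger fold changes from lower levels. Tap1 was at 3.55, 5.33 and 5.87 CPM in the controls, 12.7, 15.8 and 10.3 CPM with knockdown and 7.97, 8.36 and 8.88 CPM with overexpression. The lines did not overlap, and the knockdown libraries were the most spread. Tap1 was 2.61-fold higher with knockdown (1.38 ± 0.20; adjusted p = 5.64e-05) and 1.7-fold higher with overexpression (0.77 ± 0.20; adjusted p = 0.0116; 0.0551 without control replicate 1). With an offset for average transcript length the overexpression change was 0.43 (adjusted p = 0.388).

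Tap2 was at 2.39, 1.15 and 1.77 CPM in the controls, 6.09, 7.26 and 6.56 CPM with knockdown and 4.48, 3.71 and 3.38 CPM with overexpression. No Tap2 library of either perturbed line overlapped the controls. Tap2 was 3.73-fold higher with knockdown (1.90 ± 0.28; adjusted p = 6.68e-05) and 2.18-fold higher with overexpression (1.12 ± 0.28; adjusted p = 0.00839), from 19 to 39 counts per control library. Of its words 14.3% are shared, 11.3% with Gm15821.

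Between the perturbed lines Tap1 differed by −0.62 ± 0.19 (adjusted p = 0.0306) and Tap2 by −0.78 ± 0.26 (adjusted p = 0.0453). The Tap1 call ended without knockdown replicate 1 (0.0624) or 2 (0.144), or overexpression replicate 1 (0.0907), 2 (0.0745) or 3 (0.0552). The Tap2 call ended without control replicate 3 (0.0514), knockdown replicate 1 (0.0732), 2 (0.12) or 3 (0.0872), or overexpression replicate 1 (0.0571), 2 (0.112) or 3 (0.133).

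Tapbp encodes tapasin, which bridges the transporter and the empty heavy chain. It was at 43.6, 46.9 and 45.9 CPM in the controls, 62.6, 67.9 and 70.9 CPM with knockdown and 53.3, 51.7 and 49.7 CPM with overexpression. The lines did not overlap. Tapbp was 1.47-fold higher with knockdown (0.56 ± 0.07; adjusted p = 1.12e-05). Its change with overexpression was 0.18 ± 0.07 (adjusted p = 0.0717), which among the alternatives run passed only with an offset for average transcript length (0.46; adjusted p = 0.0162), and the difference between the perturbed lines was −0.38 ± 0.07 (adjusted p = 0.000853; 0.196 with that offset). A transcript of 367 bases, Tapbp-208, was listed at 11.3 TPM in overexpression replicate 3 and at 0 in the other 8 libraries, with 0.168% of the gene's counts. Tapbp shares 26.9% of its words, 22.1% with Gm19412.

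Erap1, the aminopeptidase of the endoplasmic reticulum that trims peptides to the length class I holds, was at 18.1, 19.7 and 17.6 CPM in the controls, 25.6, 18.6 and 27.9 CPM with knockdown and 22.5, 23.4 and 26.1 CPM with overexpression. Knockdown replicate 2 lay within the controls, while the overexpression libraries lay above them. The change was 0.38 ± 0.13 in each perturbed line (adjusted p = 0.0289 with knockdown and 0.0419 with overexpression) and 0.00 ± 0.13 between them (95% interval −0.27 to 0.26; adjusted p = 0.987). The knockdown call ended without control replicate 1 (0.0768) or 3 (0.095), or knockdown replicate 1 (0.0994) or 3 (0.142). The overexpression call ended without control replicate 1 (0.107), 2 (0.055) or 3 (0.137), or overexpression replicate 1 (0.0578), 2 (0.0778) or 3 (0.158).

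On the TPM scale Erap1 depended on its short transcripts. Erap1-201, of 5644 bases, held 98.2% of the gene's counts and was at 4.37, 4.94 and 4.4 TPM in the controls, 6.5, 4.64 and 7.43 TPM with knockdown and 5.75, 6.08 and 6.95 TPM with overexpression. The gene's summed TPM was 9.57, 6.32 and 4.46 in the controls and 6.8, 12.7 and 17.6 with knockdown. A transcript of 354 bases, Erap1-203, alone was listed at 10.1 TPM in knockdown replicate 3. With an offset for average transcript length, the Erap1 change was 0.79 with knockdown (adjusted p = 0.104) and −0.14 with overexpression (adjusted p = 0.831), so its direction with overexpression turned. Erap1 shares 11% of its words with Cast.

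Nlrc5 encodes the class I transactivator, which acts through the RFX, CREB and NF-Y factors that bind class I promoters. It was at 1.9, 1.45 and 2.32 CPM in the controls, 4.42, 4.94 and 3.46 CPM with knockdown and 3.35, 3.82 and 4.59 CPM with overexpression. All perturbed libraries were above all controls, and the perturbed lines overlapped. Nlrc5 was 2.25-fold higher with knockdown (1.17 ± 0.29; adjusted p = 0.00528) and 2.06-fold higher with overexpression (1.04 ± 0.30; adjusted p = 0.0166), from 24 to 47 counts per control library. The difference between the perturbed lines was −0.13 ± 0.28 (95% interval −0.73 to 0.47; adjusted p = 0.8). The overexpression call ended without control replicate 2 (0.0664) or overexpression replicate 3 (0.0678). With an offset for average transcript length the change was 2.44 with knockdown (adjusted p = 0.00935) and 1.59 with overexpression (adjusted p = 0.0829). Nlrc5-209, a transcript of 346 bases, was listed at 1.83 and 0.93 TPM in knockdown replicates 1 and 2 and at 0 in the other libraries.

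**Figure D3:**
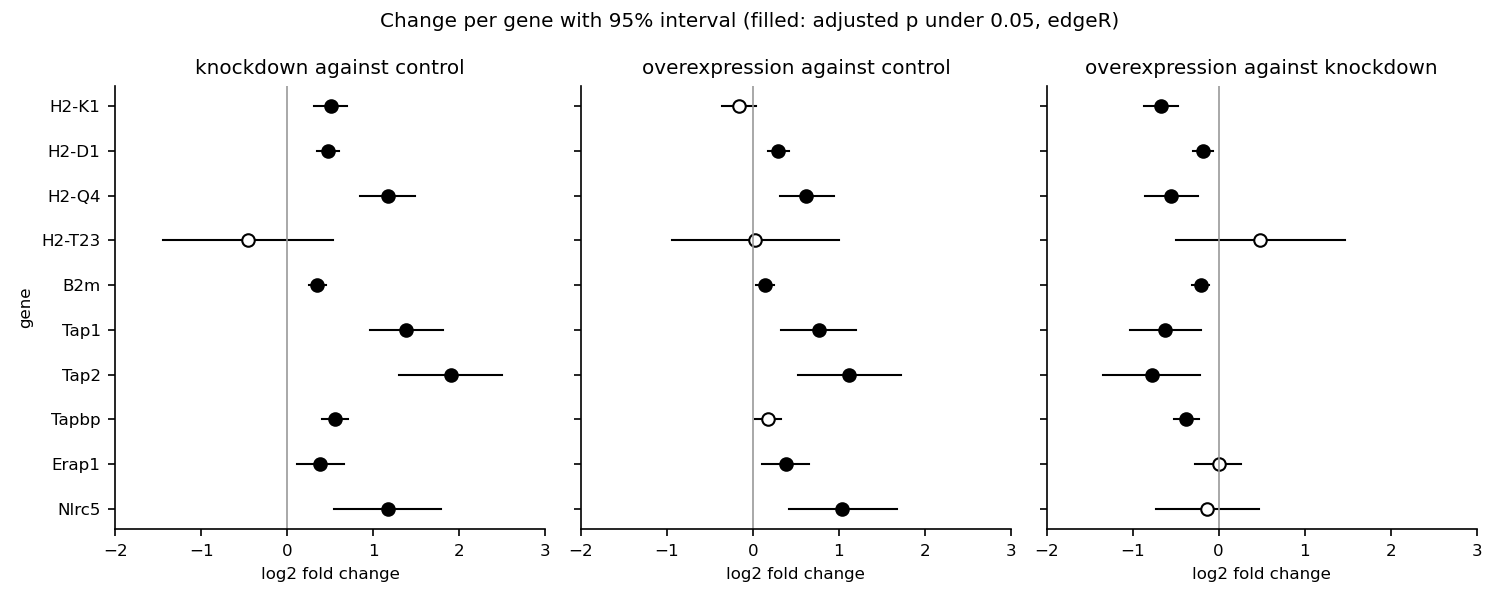
Log2 fold change of each of the 10 genes with its 95% interval in the 3 comparisons, with filled points for genes called at adjusted p under 0.05. In knockdown against control 9 points are filled, all to the right of 0, and in overexpression against knockdown 7 are filled, all to the left; the interval of H2-T23 is the widest in each panel.

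Levels per transcript length ran over about 3 orders of magnitude. In the controls the mean TPM was 505 for B2m, 57.9 for H2-D1, 29.2 for H2-K1, 26.5 for Tapbp, 6.78 for Erap1, 6.71 for H2-Q4, 3.27 for Tap1, 1.83 for H2-T23, 0.9 for Tap2 and 0.48 for Nlrc5. Neighbours whose control libraries overlapped were H2-K1 and Tapbp, Erap1 and H2-Q4, and Tap1 and H2-T23. B2m and H2-D1 were first and second in all 3 lines without overlap. Tapbp stood above H2-K1 with overexpression (means of 37.7 and 29.7 TPM), where their libraries overlapped, and Tap2 stood above H2-T23 with knockdown (3.32 and 1.27 TPM). The transporter messages were below those of the classical heavy chains, while Tap1 stood above H2-T23 by its mean in all 3 lines. Tap2 averaged 0.9 TPM beside 57.9 TPM of H2-D1 in the controls, and 3.32 beside 85.3 TPM with knockdown.

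**Figure D4:**
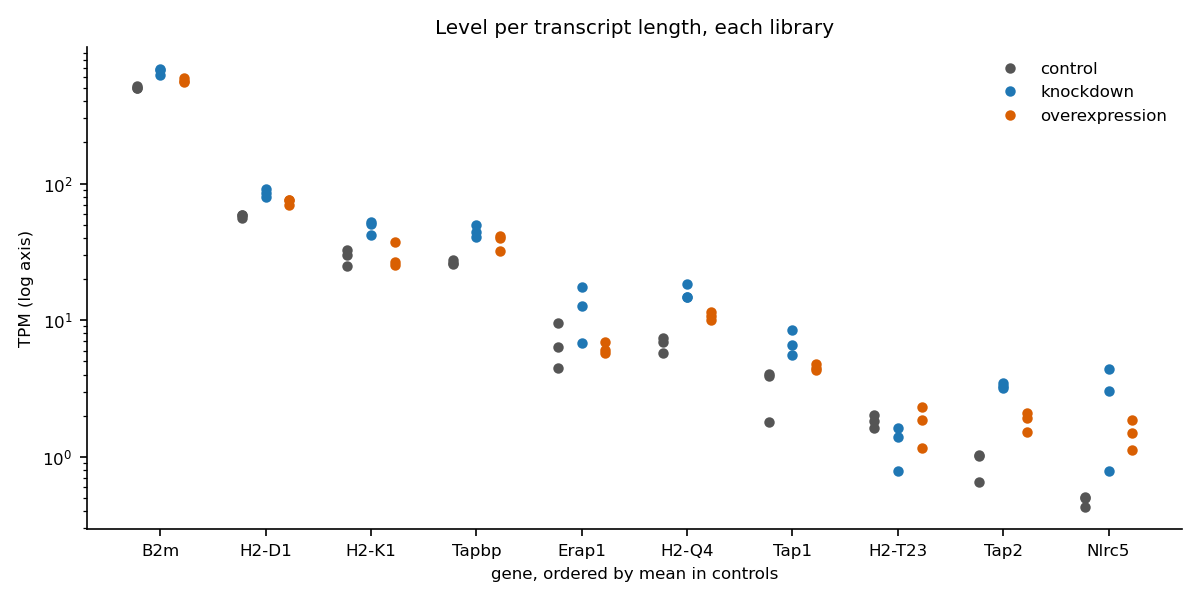
TPM of each gene in each library on a log axis, with genes ordered by their mean in the controls and points coloured by line. B2m lies between 496 and 689 TPM, H2-D1, H2-K1 and Tapbp between 24.9 and 91.7 TPM, and Tap2 and Nlrc5 at or below 4.43 TPM.

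Counts of most of these genes fell on more than 1 transcript, and the better expressed are described here with Tap2 and Nlrc5. H2-D1 was counted mainly on H2-D1-202 (84% of its counts), which went from 49.3 ± 3.31 TPM in the controls to 66.2 ± 2.91 with knockdown and 58.6 ± 0.136 with overexpression (SD, n = 3), and on H2-D1-201 (15.9%), at 7.99 ± 3.59, 19.1 ± 5.61 and 14.5 ± 3.43 TPM. For H2-K1, H2-K1-201 held 81.7% of the counts of 16 annotated transcripts, at 20.2 ± 0.647, 30.1 ± 0.0902 and 18.1 ± 3.99 TPM. Tapbp was split between Tapbp-206 (61%) and Tapbp-201 (36.9%). Tapbp-206 was at 15.4 ± 1.58, 23.9 ± 2.23 and 21.6 ± 3.95 TPM and Tapbp-201 at 9.76 ± 0.55, 14.6 ± 0.87 and 7.69 ± 3.42 TPM. Tap2 was split between the coding Tap2-201 (71%) and Tap2-202 (29%), annotated with a retained intron. Tap2-201 was at 0.402 ± 0.544, 2.2 ± 0.974 and 1.32 ± 0.756 TPM and Tap2-202 at 0.498 ± 0.458, 1.11 ± 0.968 and 0.535 ± 0.927 TPM. Nlrc5-207 held 69.1% of Nlrc5 counts and Nlrc5-201 13.6%. Nlrc5-207 was at 0.258 ± 0.167, 0.417 ± 0.168 and 0.66 ± 0.187 TPM, and its knockdown libraries overlapped the controls. Transcripts of a gene are less certain than its total.

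The rest of the pathway was read from 7 lists of 70 genes that include the 10. All 8 genes of the peptide loading complex and its chaperones rose with knockdown, 4 rose and 0 fell with overexpression, and 7 were lower with overexpression than with knockdown (list medians 0.45, 0.16 and −0.28), beside 18.0%, 13.1% and 11.1% of all tested genes called in those directions. Beyond the genes above, the general chaperone genes Calr (1480 ± 29.7 to 1730 ± 38.8 CPM, SD, n = 3; 0.23 ± 0.03; adjusted p = 3.27e-05), Canx (0.21 ± 0.04; adjusted p = 0.000374) and Pdia3 (0.17 ± 0.04; adjusted p = 0.00165) rose with knockdown, as did Tapbpl (0.54 ± 0.19; adjusted p = 0.0316), which encodes a tapasin relative that edits peptides. With overexpression Calr rose by 0.11 ± 0.03 (adjusted p = 0.0215). Calreticulin, calnexin and the disulfide isomerase of Pdia3 fold many glycoproteins besides class I.

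Of 8 tested genes of peptide trimming and the immunoproteasome, 4 rose with knockdown, 1 rose with overexpression (Erap1) and 2 were lower with overexpression than with knockdown (medians 0.28, 0.04 and −0.12). Of all tested genes 18.0%, 13.1% and 11.1% were called so, and the count with overexpression is near that background. Lnpep, an aminopeptidase of endosomes linked to cross-presentation, went from 111 ± 5.4 to 184 ± 8.4 CPM with knockdown (0.73 ± 0.05; adjusted p = 1.82e-08) and was at 109 ± 0.655 CPM with overexpression. Psme2, which encodes a subunit of the proteasome activator, rose with knockdown (0.56 ± 0.09; adjusted p = 0.000133) and Npepps, a cytosolic aminopeptidase, by 0.19 ± 0.06 (adjusted p = 0.0175). The immunoproteasome subunits Psmb8 and Psmb9, named after their values were seen, were barely detected: Psmb8 was at 0 in the controls, 0.315 CPM with knockdown and 0.298 CPM with overexpression, and was not tested, and Psmb9 was at 0.377, 0.667 and 0.552 CPM. The other immunoproteasome subunit, Psmb10, averaged 14.4 ± 1.36, 14.3 ± 0.579 and 14.7 ± 0.588 CPM in the 3 lines, with no call in any comparison.

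Of 16 non-classical heavy chain genes 6 were tested. With knockdown 2 rose, H2-Q4 and H2-T22 (14.5 ± 0.608 to 21.2 ± 2.87 CPM; 0.55 ± 0.13; adjusted p = 0.00313), and 3 rose with overexpression, H2-Q4, H2-T22 (0.58 ± 0.13; adjusted p = 0.00372) and Cd1d1, which presents lipids to NKT cells (1.76 ± 0.495 to 3.98 ± 1.12 CPM; 1.18 ± 0.38; adjusted p = 0.0324). Of all tested genes 18.0% were called higher and 17.4% lower with knockdown, and 13.1% and 11.1% with overexpression. None of the 6 fell in either comparison, which among so few genes is near those shares. The medians were 0.13 and 0.3. H2-T22, recognised by gamma delta T cells, shares 67.4% of its words, 47.2% with H2-T10, and is uncertain. Class II genes were nearly silent, with 2 of 9 tested and H2-Aa and H2-Ab1 at 0 throughout. H2-DMb1, a class II loading gene, was higher with overexpression (1.19 ± 0.32; adjusted p = 0.0123), from 2.23 ± 0.911 to 5.08 ± 1.17 CPM.

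Of 17 tested class I transcription regulators, 8 rose and 2 fell with knockdown, and 4 rose and 2 fell with overexpression (medians 0.12 and 0.1). Of all tested genes 18.0% were called higher and 17.4% lower with knockdown, and 13.1% and 11.1% with overexpression. The falls in this list are below that share with knockdown and near it with overexpression. Between the perturbed lines 2 were higher and 4 lower with overexpression, where 11.0% of all tested genes were called higher and 11.1% lower. The count of higher genes is near that background. With knockdown Nfkb1, the gene of an NF-kappaB subunit, rose by 0.62 ± 0.06 (adjusted p = 6.11e-07) and Stat2, of interferon signalling, by 0.44 ± 0.12 (adjusted p = 0.00715). The RFX complex, through which NLRC5 acts, was split: Rfx5 rose from 16.7 ± 2.15 to 29.2 ± 4.53 CPM (0.81 ± 0.13; adjusted p = 0.000171) while Rfxank fell from 20.3 ± 0.916 to 14.7 ± 1.43 CPM (−0.46 ± 0.11; adjusted p = 0.00316). With overexpression Rfxank fell as well (−0.37 ± 0.11; adjusted p = 0.0195), Rfx5 was at 15.9 ± 1.93 CPM, Nfkb1 rose by 0.24 ± 0.06 (adjusted p = 0.00661) and Creb1 fell (−0.45 ± 0.07; adjusted p = 0.000236). Between the perturbed lines, Rfx5 (−0.88 ± 0.13; adjusted p = 0.00017), Nfkb1 (−0.38 ± 0.06; adjusted p = 0.000209) and Nfya (−0.25 ± 0.06; adjusted p = 0.00349) were lower with overexpression.

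Of 8 interferon receptor and kinase genes, 1 fell and 0 rose in each line against control, a share near the 17.4% and 11.1% of all genes called lower with knockdown and overexpression. The receptor gene Ifnar1 fell with knockdown (87.8 ± 2.69 to 63.8 ± 3.06 CPM; −0.46 ± 0.06; adjusted p = 2.5e-05) and the kinase gene Jak1 with overexpression (171 ± 8.47 to 127 ± 5.95 CPM; −0.43 ± 0.05; adjusted p = 1.49e-05).

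**Figure D5:**
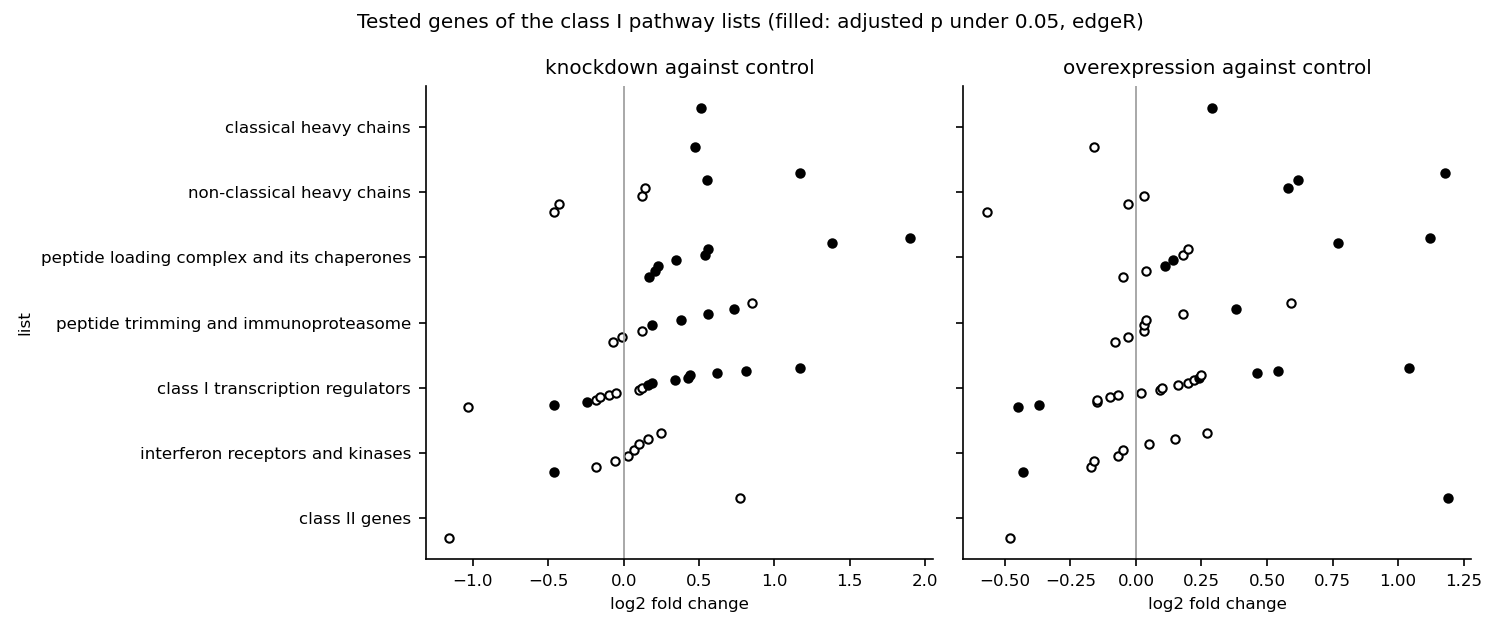
Log2 fold change of each tested gene of the 7 pathway lists against control, with knockdown on the left and overexpression on the right, and filled points for genes called at adjusted p under 0.05. All 8 loading complex genes are filled and right of 0 with knockdown, while the regulators and interferon receptor genes lie on either side of 0.

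The protein-coding genes closest in pattern over the 9 libraries, by the root mean square difference in centred log2 CPM, were Lactb (0.034), Suz12 (0.036) and Tax1bp1 (0.0366) for B2m. For H2-D1 they were Rad18 (0.0419), Plxnb2 (0.0442) and Stxbp5 (0.0448). Suz12 averaged 237, 303 and 265 CPM in the control, knockdown and overexpression lines, and Rad18 59.1, 80.4 and 71.9 CPM. Their likeness in the order of lines follows from how they were chosen.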

How the data were processed

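Per the labels' protocols, total RNA of B16F10 cells was made into non-directional libraries and sequenced as read pairs, so overlapping and antisense genes cannot be told apart. The deposited tables give, per the file headers, an estimated count (which need not be whole), a TPM value and an effective length for each transcript. Per the submitters' processing notes the authors used Salmon 1.4.0, MultiQC 1.11, DESeq2 1.34.0 and the genome build mm39; the annotation release is not given in the sources used here. Where transcripts are near-identical, Salmon shares fragments out by estimated abundance, so genes with such copies are uncertain.

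Transcripts were matched to genes with GENCODE M21 (GRCm38), used for names, chromosomes, gene and transcript types and shared 31-base words. Of 140789 transcripts 137161 (97.42%) matched, and the rest, 0.554% to 0.654% of counts, were left out. Counts were summed per gene and rounded, and filtered with filterByExpr (minimum count 10). Tests used edgeR 4.0.16 in R 4.3.3, with TMM and a quasi-likelihood fit over the 9 libraries that had only the line as a factor, and Benjamini-Hochberg adjustment over 13064 genes. CPM uses TMM library sizes. Pairs of libraries of a line differed by a chi-square per degree of freedom of 4.77 to 10.5, so none was a copy. Alternatives were DESeq2 1.42.0, limma-voom 3.58.1, other filters and size factors, a replicate block, a length offset, fits to 2 lines, summed heavy chains, and leaving out each library.

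The members and lists were chosen with earlier results of these data known. Named genes are the 10 members, Sirpa, up to 4 called genes per list and comparison by adjusted p, and the 3 genes most like B2m and H2-D1; 1 gene this rule names is not reported here. Replicate numbers showed no sign of pairing the libraries.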

Additional observations from a re-analysis of the deposited data

Results flagged for a closer look

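For 7 of the 10 genes the change from control differed between the 2 perturbed lines by a direct test, overexpression minus knockdown on the log2 scale (edgeR, adjusted over all genes tested), where 11.1% of all genes were called lower and 11.0% higher. The difference was −0.67 for H2-K1 (adjusted p = 7.17e-05), −0.18 for H2-D1 (0.0335), −0.55 for H2-Q4 (0.0111), −0.21 for B2m (0.00405), −0.62 for Tap1 (0.0306), −0.78 for Tap2 (0.0453) and −0.38 for Tapbp (0.000853). In each of these genes all 3 overexpression libraries were below all 3 knockdown libraries. The genes whose difference was not called were H2-T23, Erap1 and Nlrc5, with intervals given in the report. On leaving out each of the 9 libraries in turn, H2-K1, B2m and Tapbp were called in 9 of 9 fits, H2-Q4 in 8, H2-D1 in 6, Tap1 in 4 and Tap2 in 2. With an offset for average transcript length 3 members were called, and H2-D1 (adjusted p = 0.106), Tap1 (0.216), Tap2 (0.0705) and Tapbp (0.196) were not.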

How the results depend on the processing

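Counts of genes called and of members called stayed within 1.5 times their main value under DESeq2, limma-voom, DESeq2 size factors, both filters and fits to 2 lines. With an offset for average transcript length, 2794, 1574 and 1421 genes were called in place of 4619 (knockdown), 3172 (overexpression) and 2887 (between the perturbed lines), and 8, 4 and 3 members in place of 9, 7 and 7; the cause was not tested. Leaving out 1 library gave 3885 to 4555, 2440 to 3297 and 2241 to 2867 genes and 8 to 9, 4 to 7 and 3 to 7 members. The fewest members were called without control replicate 2 or overexpression replicate 3 (4 each, overexpression against control) and without knockdown replicate 2 (3) or overexpression replicate 1 or 3 (4 each, between the perturbed lines). Same-numbered libraries correlated at −0.0927 to 0.127 and others at −0.131 to 0.0926. The numbers thus showed no sign of pairing, which so few libraries per line cannot exclude. With the replicate block 4423, 2957 and 2712 genes and 9, 5 and 6 members were called, and the calls lost were B2m (adjusted p = 0.063) and Erap1 (0.053) with overexpression and Tap2 (0.0573) between the perturbed lines. Of values with no call that turned direction, H2-T23 with overexpression was −0.04 under limma-voom, −0.10 with the length offset, −0.09 without control replicate 1 and −0.18 without overexpression replicate 3 (range on leaving out 1 library −0.18 to 0.23). Erap1 between the perturbed lines was 0.00 under limma-voom and the replicate block, and 0.01 to 0.11 (0.01, 0.03, 0.04 and 0.11) without overexpression replicate 2 or 1 or knockdown replicate 1 or 3 (range −0.15 to 0.11). A called value turned too: Erap1 with overexpression, 0.38 in the main fit, was −0.14 under the length offset. Summing the heavy chains gave 0.54, 0.28 and −0.25, opposite in sign to H2-T23 with knockdown and between the perturbed lines and to H2-K1 with overexpression. Depth limits H2-T23, Tap2 and Nlrc5, whose control libraries held under 50 counts each.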
